A study of Homo sapiens with 6 samples.

Results

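The cadherin-catenin complex was followed in 6 mRNA sequencing libraries of BxPC-3, an established human pancreatic cancer cell line, through the genes of its core proteins. The members were the 2 classical cadherins of epithelium, CDH1 (E-cadherin) and CDH3 (P-cadherin), and the 4 catenins CTNNA1 (α-catenin), CTNNB1 (β-catenin), CTNND1 (p120-catenin) and JUP (plakoglobin, also called γ-catenin). They were taken by gene symbol from the 26255 symbols in each deposited file, all 6 were found, and all 6 were kept for testing, with 12040 genes in all whose mean over the libraries reached 1 FPKM. FPKM divides the fragments of a gene by the length of its exons and by the size of the library. It is a level per length, so it can be compared between genes as well as between libraries.

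A classical cadherin spans the cell membrane and binds the same cadherin on the next cell in the presence of calcium. Inside the cell its tail is held by β-catenin or by plakoglobin, which bind α-catenin, and α-catenin connects the junction to actin filaments. p120-catenin binds the tail close to the membrane and keeps the cadherin from being internalized and degraded, β-catenin also acts as a transcription cofactor in Wnt signalling, and plakoglobin is shared with the desmosome. E-cadherin is the main cadherin of ductal epithelium in the pancreas, and its loss is a usual mark of cells that leave the epithelial state.

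The study compared 3 groups of 2 libraries each, all from the same cell line: untreated cells (Parent), cells given a negative control (NC-1) and cells transfected with the microRNA miR-4711-5p, with RNA taken 36 h after transfection. BxPC-3 stands for 1 tumour only. It carries no SMAD4 in these data, which was listed at 0 FPKM in all 6 libraries, while the epithelial keratin KRT7 had a mean of between 1589.8 and 1789 FPKM per group. The labels do not say whether the 2 libraries of a group came from separate cultures, so p-values measure the spread between these libraries, which may be technical. The FPKM of a library summed to between 493145 and 550772. The number of reads is not kept in FPKM. Relative depth was estimated from the most common ratio to Parent 1 among genes with very low values in both libraries. This put the other 5 libraries at between 0.753 and 1.21 times the depth of Parent 1. Only 29.0% to 36.6% of those genes held the most common ratio. The values are from bulk RNA, in which fewer cells of a kind and less RNA per cell cannot be told apart, and they say nothing of protein.

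The mature miR-4711-5p and the stretches of CDH1 that match its seed are shown first, because CDH1 alone among the members holds such a match in its 3′ UTR. The seed (positions 2 to 8, in capitals in the microRNA) pairs with CTGATGC, called a 7mer-m8 site. TGATGCA, which pairs with positions 2 to 7 and has an A opposite position 1, is a 7mer-A1 site, and CTGATGCA is the 8mer site that holds both. Matches were searched on the sense strand of GENCODE transcripts on GRCh37, the build called hg19 in the study's notes. In the CDH1 lines the capitals are the site itself, to which the coordinates refer, on the plus strand.
hsa-miR-4711-5p, RefSeq, GRCh38.p14 chr1:59733269-59733291, minus strand: uGCAUCAGgccagaagacaugag
CDH1 3′ UTR, exon 16, 7mer-A1, chr16:68867525-68867531: aaaagagactggttagTGATGCAgtta
CDH1 3′ UTR, exon 16, 8mer, chr16:68868482-68868489: ccaagataggagttctCTGATGCAgaaa
CDH1 3′ UTR, exon 16, 7mer-m8, chr16:68868808-68868814: ctggcaatttagcaaaCTGATGCtgag
CDH1 coding sequence, exon 9, 7mer-m8, chr16:68847274-68847280: accacactgaaagtgaCTGATGCtgat
CDH1 coding sequence, exon 9, 7mer-m8, chr16:68847280-68847286: ctgaaagtgactgatgCTGATGCcccc
CDH1 coding sequence, exon 12, 7mer-A1, chr16:68856037-68856043: aggtcataaacatcatTGATGCAgacc

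CDH1 (chromosome 16, 68771195 to 68869440, plus strand) was the only member with a site in an annotated 3′ UTR. Its sites start at positions 123, 1080 and 1406 of a 3′ UTR of 2038 nt, and the exon 9 pair share 1 base. The 3′ UTRs of the other members' canonical transcripts are 1892 nt (CDH3), 945 nt (CTNNA1), 1101 nt (CTNNB1), 3232 nt (CTNND1) and 1135 nt (JUP) long and hold no 7mer or 8mer site. Each of these 5 genes has a single 7mer-A1 site in its coding sequence, in exon 7 of CDH3 (chr16:68713711-68713717), exon 8 of CTNNA1 (chr5:138221921-138221927), exon 4 of CTNNB1 (chr3:41266635-41266641), across the junction of exons 19 and 20 of CTNND1 and in exon 11 of JUP (chr17:39913941-39913947, minus strand).

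**Figure D1:**
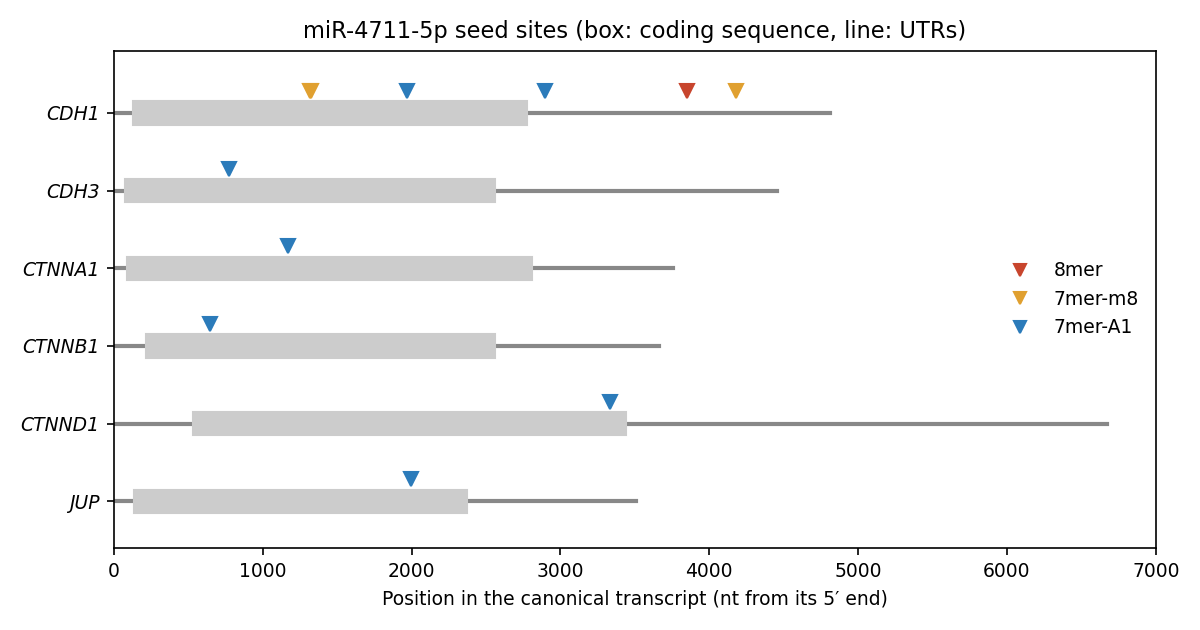
Positions of miR-4711-5p seed sites in the canonical transcript of each of the 6 genes. The x axis is the distance from the 5′ end of the transcript in nt, grey boxes are coding sequence, lines are UTRs, and triangles mark sites coloured by type. The pair of 7mer-m8 sites in exon 9 of CDH1 overlap on this scale; CDH1 has 3 sites beyond its coding sequence and the other genes have none there.

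Such sites are common, so the count in CDH1 was set beside that of all genes. Of the 12040 genes tested, 11173 were matched to a transcript with a 3′ UTR, and 2054 of them (18.4%) had at least 1 site in the longest one, while 403 (3.61%) had an 8mer. At least 3 sites in the canonical 3′ UTR were found in 76 genes (0.680%), and at least 3 in the coding sequence in 147 genes (1.32%). CDH1 and PAPSS2 were the 2 genes with at least 3 in each. The cutoff of 3 equals the count of CDH1 itself in each region, so these shares are not an independent measure of how unusual CDH1 is. In the coding sequence CDH1 reached 3 only because its pair of sites that share 1 base was counted as 2. A coding-sequence site such as those of the other 5 members was present in 2671 genes (23.9%). With the number of sites in the longest 3′ UTR, the median difference on the log2(FPKM + 1) scale between miR-4711-5p and Parent went from -0.01 with none (9119 genes) to -0.07 with 1 (1658 genes), -0.12 with 2 (317 genes) and -0.17 with 3 or more (79 genes). Against NC-1 the medians were 0.02, -0.09, -0.16 and -0.28. Between NC-1 and Parent they went the other way with the number of sites, at -0.03, 0.03, 0.05 and 0.07. The 2123 genes with a coding-sequence site and none in the 3′ UTR had a median of -0.04 against either control. These medians describe 1 set of libraries and were not tested. The genes grouped by number of sites were not matched for 3′ UTR length. The median canonical 3′ UTR was 1304 nt, and that of CDH1 is 2038 nt.

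CDH1 mRNA was lower after miR-4711-5p than in either control, and by far more than any other member. The libraries had 114 and 117 FPKM in Parent, 109.4 and 109.6 FPKM in NC-1, and 28.3 and 30.9 FPKM after miR-4711-5p. Both treated libraries were below all 4 controls, and the gap was many times the spread within a group. The mean fell from 115 ± 1.67 in Parent and 109.5 ± 0.128 in NC-1 to 29.6 ± 1.81 FPKM (SD, n = 2 each), a decrease of 3.90-fold and 3.70-fold. Each gene was tested on log2(FPKM + 1) with limma, which borrows the spread across all genes, and was called at a Benjamini-Hochberg adjusted p under 0.05. CDH1 fell by 1.93 on the log2 scale against Parent (SE 0.0514, 95% confidence interval -2.05 to -1.81, adjusted p = 2.81e-06) and the change against NC-1 was -1.85 (interval -1.98 to -1.73, adjusted p = 3.18e-06). These were the decreases in place 14 and place 16 of 12040 genes, and the largest of the 79 genes with at least 3 sites in the longest 3′ UTR against each control.

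CDH3, whose P-cadherin is found in basal layers of stratified epithelium and in many carcinomas, starts upstream of CDH1 on the same strand (chromosome 16, 68670092 to 68761371), with 9.82 kb between the end of CDH3 and the start of CDH1. Its libraries had 73.7 and 71.6 FPKM in Parent, 71.0 and 70.6 FPKM in NC-1, and 59.4 and 59.9 FPKM after miR-4711-5p. The treated libraries again lay below all 4 controls, but the change was far smaller than that of CDH1, and 66.4% of the genes tested had a smaller absolute change against Parent. CDH3 fell by 0.28 on the log2 scale against Parent (SE 0.0414, limma adjusted p = 0.00169) with a change of -0.24 against NC-1 (adjusted p = 0.00350), to 0.820 and 0.842 times the level of the controls. The other tested genes around CDH1 are expressed at low levels. ZFP90, a zinc finger protein upstream of CDH3, had a mean of 2.54 ± 0.0800 FPKM in Parent and 2.11 ± 0.229 FPKM after miR-4711-5p, a difference of -0.19 (limma adjusted p = 0.252). TANGO6, downstream of CDH1, had 2.40 ± 0.0428 and 2.40 ± 0.631 FPKM, a difference of -0.01 (limma adjusted p = 0.949).

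Among the catenins, CTNND1 and JUP fell most. CTNND1, the p120-catenin gene (chromosome 11, 57520715 to 57587018, plus strand), had 196 and 198 FPKM in Parent, 207 and 208 FPKM in NC-1, and 136 and 138 FPKM after miR-4711-5p. Its treated libraries were below every control library, with differences of less than 3 FPKM within each group. It fell by 0.52 on the log2 scale against Parent (SE 0.0375, 1.44-fold, limma adjusted p = 6.30e-05) with a change of -0.60 against NC-1 (1.52-fold, adjusted p = 3.81e-05). The row TMX2-CTNND1, a readthrough transcript with the upstream gene, held at most 1.47 FPKM in any library, so reads assigned to it were few beside those of CTNND1.

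JUP, the plakoglobin gene (chromosome 17, 39910856 to 39943183, minus strand), had 229.7 and 211 FPKM in Parent, 190.4 and 193 FPKM in NC-1, and 148 and 145 FPKM after miR-4711-5p. The 3 groups did not overlap, with Parent highest and NC-1 in between. JUP fell by 0.59 on the log2 scale against Parent (SE 0.0496, 1.51-fold, limma adjusted p = 0.000137) with a change of -0.39 against NC-1 (1.31-fold, adjusted p = 0.00101). It was also the member with a call between the controls, where NC-1 was lower than Parent by 0.20 on the log2 scale (mean ratio 0.870, limma adjusted p = 0.0261). That call was lost under 7 of 13 alternatives. These were leaving out Parent replicate 1 (-0.14, adjusted p = 0.109), NC-1 replicate 1 (-0.19, adjusted p = 0.0980) and NC-1 replicate 2 (-0.21, adjusted p = 0.0692), no filter (adjusted p = 0.0587), no trend in eBayes (0.0626), rescaling to equal FPKM sums (-0.11, adjusted p = 0.109) and rescaling by median-of-ratios over genes of at least 10 FPKM (-0.14, adjusted p = 0.0666). The 2 Parent libraries differed by more in JUP (SD 13.1 FPKM) than in any other member.

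CTNNA1, the α-catenin gene that carries the link to actin (chromosome 5, 137946656 to 138270723, plus strand), had 139 and 134 FPKM in Parent, 142 and 138 FPKM in NC-1, and 113 and 117 FPKM after miR-4711-5p. Both treated libraries were below the controls. It fell by 0.24 on the log2 scale against Parent (SE 0.0424, limma adjusted p = 0.00368) with a change of -0.28 against NC-1 (adjusted p = 0.00208), to 0.845 and 0.821 times the control means. When the libraries were rescaled to equal FPKM sums, the change against Parent was -0.10 (adjusted p = 0.0658).

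CTNNB1, the β-catenin gene (chromosome 3, 41236232 to 41301587, plus strand), went the other way. Its libraries had 163 and 161 FPKM in Parent, 175 and 173 FPKM in NC-1, and 183 and 186 FPKM after miR-4711-5p. The 3 groups did not overlap, and here miR-4711-5p was highest. CTNNB1 rose by 0.19 on the log2 scale against Parent (SE 0.0378, 1.14-fold, limma adjusted p = 0.00690), and without miR-4711-5p replicate 2 the change was 0.17 (adjusted p = 0.0515). Against NC-1 the difference was 0.08 (interval -0.0046 to 0.17, limma adjusted p = 0.117) and was not called. It was called after rescaling to equal FPKM sums (0.14, adjusted p = 0.0193).

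**Figure D2:**
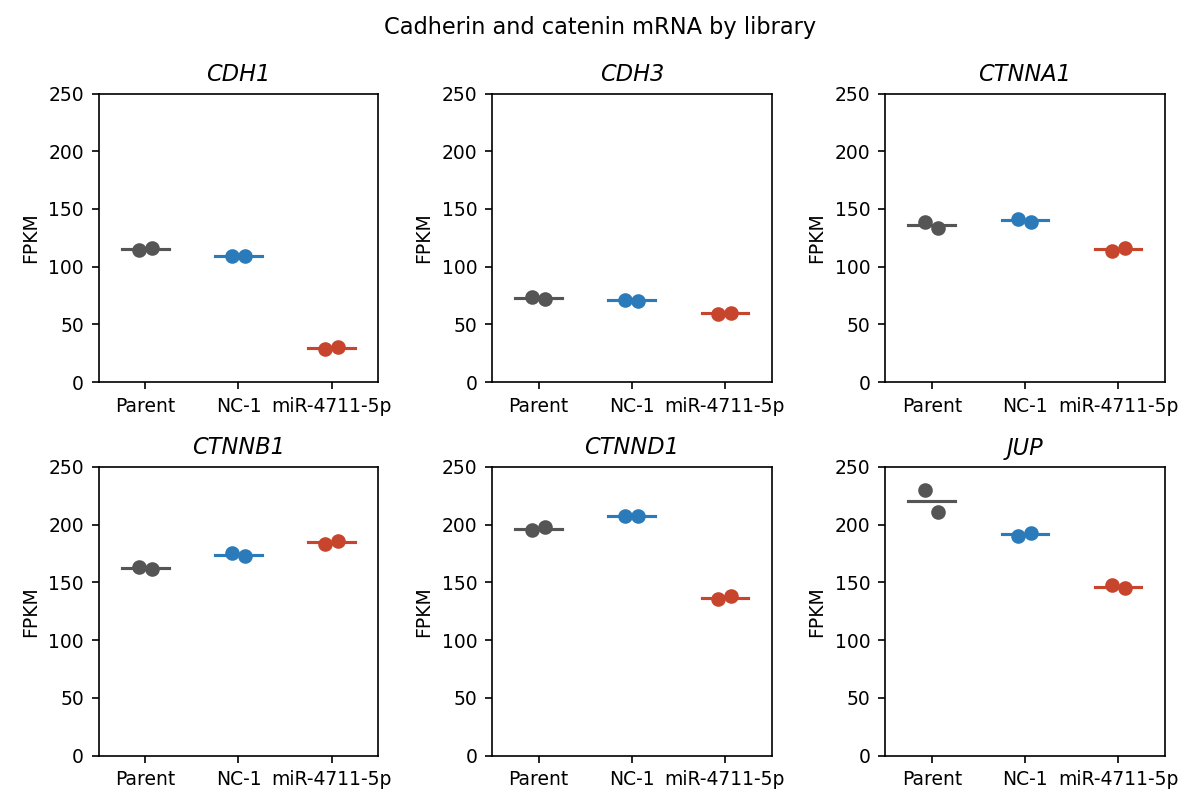
Level of each of the 6 genes in each library, in FPKM, by group, with 1 point per library and a line at the group mean. The CDH1 points after miR-4711-5p lie at 28.3 and 30.9 FPKM, against 109.4 to 117 FPKM in the controls, and CTNNB1 is the gene whose highest points are after miR-4711-5p.

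Counted together, 5 of the 6 members fell against Parent and 1 rose, where 43.4% of all genes tested were called, 24.7% lower and 18.7% higher. Against NC-1, 5 fell and 1 was not called, where 39.6% of all genes were called and 21.2% were called lower. The median change of the members was -0.40 against Parent and -0.33 against NC-1, and that of all genes tested was -0.01 and 0.00. Both comparisons use the same miR-4711-5p libraries and so are not independent. Separation alone was frequent in these libraries. Against Parent, 5 members had both treated libraries below both controls and 1 had them above, where the libraries of 74.2% of all genes did not overlap (39.3% below and 35% above). Against NC-1 the members' counts were the same, where 72.4% did not overlap (36.2% below and 36.2% above). Between NC-1 and Parent, 3 members lay below and 2 above without overlap, where 65.5% of all genes did so (34.2% below and 31.3% above). By the test, 27.2% of all genes were called between NC-1 and Parent (15.1% lower and 12.1% higher), and of the members only JUP was. The differences between NC-1 and Parent for the others ran from -0.07 (CDH1, limma adjusted p = 0.320) to 0.10 (CTNNB1, adjusted p = 0.0862). Rescaling to equal FPKM sums turned those of CDH1 and CDH3 to 0.011 and 0.047.

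**Figure D3:**
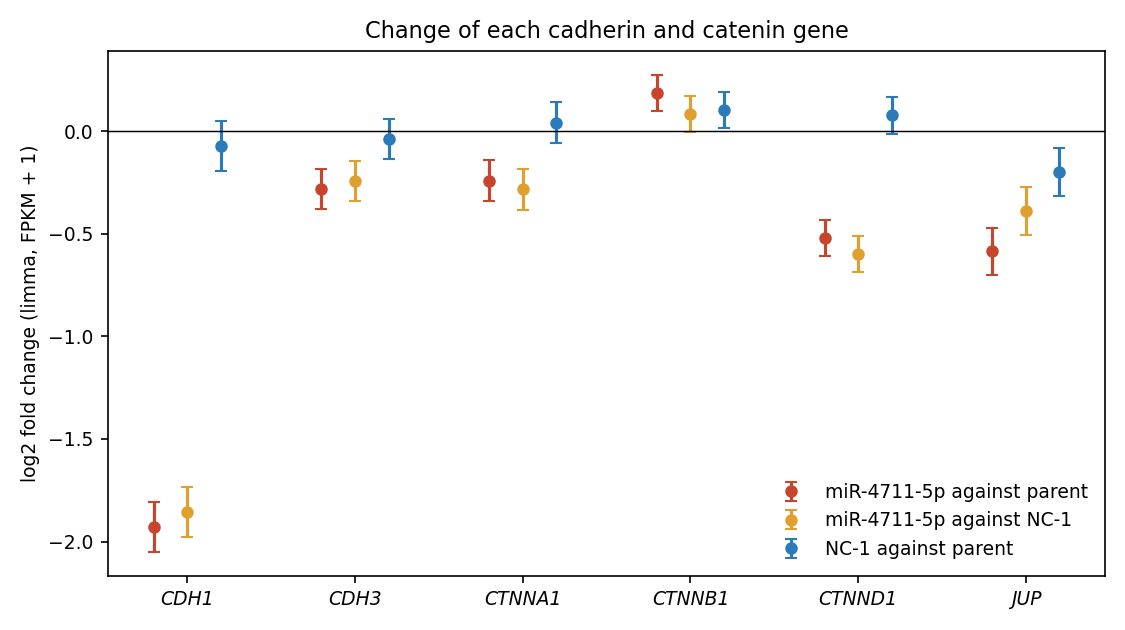
Change of each gene in the 3 comparisons, as the log2 fold change of FPKM + 1 from limma with its 95% confidence interval. The intervals of CDH1 after miR-4711-5p end at or below -1.73, while those of the other 5 genes in the same comparisons lie between -0.70 and 0.28.

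The order of the members by level changed with miR-4711-5p at both ends. In Parent it ran from JUP through CTNND1, CTNNB1, CTNNA1 and CDH1 to CDH3, and in NC-1 it was the same but for CTNND1 above JUP. After miR-4711-5p it ran from CTNNB1 through JUP, CTNND1, CTNNA1 and CDH3 to CDH1. In none of the groups did the libraries of neighbours in this order overlap. In rank among all genes tested, CDH1 was above 93.7% of genes in Parent and above 75.3% after miR-4711-5p. CTNNB1 was above 95.7% and 96.8%.

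Ratios taken within a library do not depend on how libraries are scaled against each other. CDH1 made up 60.8% and 61.9% of the summed FPKM of CDH1 and CDH3 in Parent, 60.6% and 60.8% in NC-1, and 32.3% and 34.0% after miR-4711-5p. E-cadherin mRNA was thus the larger cadherin mRNA in the 4 control libraries and the smaller one in both treated libraries. The 2 cadherins summed to 188 ± 0.172 FPKM in Parent, 180.3 ± 0.174 in NC-1 and 89.2 ± 2.18 after miR-4711-5p, and the 4 catenins to 715 ± 16.6, 713 ± 1.83 and 583 ± 3.98 FPKM (SD, n = 2 each). The catenin sum was 3.80 ± 0.0919 times the cadherin sum in Parent, 3.956 ± 0.00634 times in NC-1 and 6.53 ± 0.115 times after miR-4711-5p. Of the pair that compete for the same stretch of the cadherin tail, CTNNB1 made up 42.4% ± 1.28 of the sum with JUP in Parent, 47.6% ± 0.461 in NC-1 and 55.8% ± 0.633 after miR-4711-5p. Each of these 3 ratios separated the treated from all control libraries. With 2 libraries a group, the two-sided exact permutation test gave p = 0.333 for each of them against either control, which is the smallest value this design allows.

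**Figure D4:**
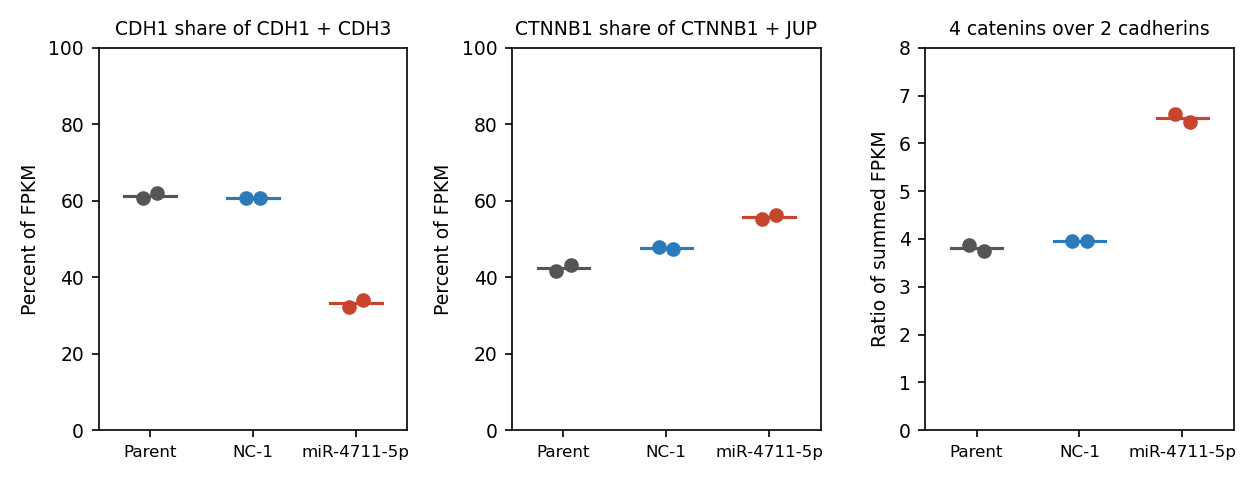
Balance of the members within each library: the CDH1 share of CDH1 plus CDH3 and the CTNNB1 share of CTNNB1 plus JUP in percent of FPKM, and the ratio of the summed FPKM of the 4 catenins to that of the 2 cadherins. Points are libraries and lines are group means. The CDH1 share lies at 60.6% to 61.9% in the controls and at 32.3% and 34.0% after miR-4711-5p.

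None of 24 further genes named CDH or CDHR came near these levels. Of the 24, 19 were under the filter and 5 were tested. Desmosomal cadherins are given with the desmosome genes. Against Parent 2 rose and 2 fell, where 18.7% of all genes were higher and 24.7% lower. CDH2 (N-cadherin, the cadherin of neural and mesenchymal cells) rose from 1.15 ± 0.0236 to 2.47 ± 0.330 FPKM, by 0.68 on the log2 scale (limma adjusted p = 0.00426), and by 0.79 against NC-1 (adjusted p = 0.00250). CDH6, a kidney-type cadherin, rose from 4.49 ± 0.137 to 6.62 ± 0.244 FPKM (0.47, limma adjusted p = 0.00197). CDH11, a mesenchymal cadherin, fell from 4.19 ± 0.213 to 2.93 ± 0.000714 FPKM (-0.40, limma adjusted p = 0.00624). CDH5 (VE-cadherin) stood at 0.962 ± 0.0467 FPKM in Parent, 3.02 ± 0.202 in NC-1 and 0.541 ± 0.101 after miR-4711-5p, and was lower after miR-4711-5p than in NC-1 (-1.38 on the log2 scale, limma adjusted p = 0.000165). Its call against Parent (-0.35, adjusted p = 0.0472) was lost with the replicate block (0.0546), with the 2 groups alone (0.0730), under both rescalings chosen after seeing the data (0.0627 and 0.0794), and without any 1 of the 4 libraries compared (adjusted p between 0.0826 and 0.173). CDH24, the highest of the 5, had 10.1 ± 1.13 and 8.70 ± 0.277 FPKM (-0.19, limma adjusted p = 0.104). After miR-4711-5p the 24 genes summed to 22.1 and 22.6 FPKM, below the 28.3 FPKM of CDH1 in the lower treated library.

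Among the relatives and partners of the catenins, 5 of 8 genes were tested and 2 fell against Parent, where 24.7% of all genes were lower. PKP4, a p120-family protein of junctions, fell from 36.96 ± 0.713 to 28.1 ± 1.31 FPKM (-0.38, limma adjusted p = 0.00106). CTNNBIP1, which keeps β-catenin from TCF factors, fell from 30.1 ± 1.52 to 24.3 ± 0.139 FPKM (-0.30, limma adjusted p = 0.00618). CTNNAL1, an α-catenin-like protein, had 59.2 ± 1.9996 and 53.9 ± 0.890 FPKM (-0.13, limma adjusted p = 0.0830). The neural forms CTNNA2 and CTNND2 and the testis and heart form CTNNA3 held at most 0.0263 FPKM.

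The proteins that tie the complex to actin, together with the nectins (the other adhesion receptors of adherens junctions), gave 11 genes lower and 3 higher of 21 tested against Parent, with a median change of -0.14. Against NC-1, 9 were lower and 3 higher, with a median of 0.00. For all genes tested the shares were 24.7% lower and 18.7% higher against Parent, and 21.2% and 18.4% against NC-1. NECTIN1 (PVRL1 in the files) fell most, with 212 and 197 FPKM in Parent, 184 and 187 in NC-1, and 90.5 and 89.6 after miR-4711-5p (-1.17 against Parent, limma adjusted p = 5.69e-06). SHROOM3, which drives apical constriction, fell from 8.69 ± 0.335 to 4.46 ± 0.225 FPKM (-0.83, limma adjusted p = 0.000108). NECTIN4 (PVRL4) went up from 5.50 ± 0.230 to 9.51 ± 0.344 FPKM against Parent (0.69, limma adjusted p = 0.000207), but it was already at 8.20 ± 0.238 FPKM in NC-1 (0.19, adjusted p = 0.0501). The difference against NC-1 was called with a pseudocount of 0.1 (limma adjusted p = 0.0493) and without a trend (0.0454). It was also called with equal FPKM sums (0.24, adjusted p = 0.0223) and with median-of-ratios over genes of at least 10 FPKM (0.20, adjusted p = 0.0394). After rescaling to equal FPKM sums the split against Parent was 7 lower and 8 higher, with a median of -0.00, so this list has no direction that holds under both scalings.

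The kinases, phosphatases, proteases and trafficking proteins that act on E-cadherin gave 9 of 28 lower and 5 higher against Parent, and 12 lower and 3 higher against NC-1. The shares against Parent are near those over all genes (24.7% lower and 18.7% higher), and against NC-1 21.2% of all genes were lower and 18.4% higher. After rescaling to equal FPKM sums, 7 were lower and 12 higher against Parent. MET, the HGF receptor, whose signalling loosens epithelial junctions, had 115 and 117 FPKM in Parent, 115 and 111 in NC-1, and 55.1 and 55.0 after miR-4711-5p (-1.06 against Parent, limma adjusted p = 5.60e-06). ADAM15, a metalloproteinase that can shed E-cadherin, fell from 131 ± 3.79 to 66.7 ± 1.32 FPKM (-0.97, limma adjusted p = 9.49e-06). The main E-cadherin sheddase, ADAM10, had 67.6 ± 4.08 and 64.6 ± 1.57 FPKM (-0.06, limma adjusted p = 0.373). The protease CAPN1 fell from 301 ± 11.4 to 212 ± 6.09 FPKM (-0.51, limma adjusted p = 0.000167), and its call against NC-1 (-0.16, adjusted p = 0.0284) was lost without any 1 of the 4 libraries compared, with adjusted p between 0.0660 and 0.161, and also with no filter (0.0535), no trend (0.0729) or equal FPKM sums (-0.10, adjusted p = 0.0972).

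The transcriptional repressors of E-cadherin were mostly at low levels. Of 16 genes, 9 were under the filter, with SNAI1 at no more than 0.966 FPKM, ZEB1 at no more than 0.342, ZEB2 at no more than 0.0872, and TWIST1 and TWIST2 listed at 0 in all libraries. Of the 7 tested, 2 fell against Parent and limma called none higher, where 24.7% of all genes were lower and 18.7% higher. The one positive difference was that of EZH2 (0.03, adjusted p = 0.643), which was called higher after rescaling to equal FPKM sums, where 1 was higher and 1 lower. SNAI2 (Slug), the one repressor of the Snail family with a sizeable level, had 38.4 ± 1.75 FPKM in Parent, 41.0 ± 1.76 in NC-1 and 34.6 ± 1.95 after miR-4711-5p (-0.15 against Parent, limma adjusted p = 0.0922). SNAI2 was called lower against NC-1, but not after rescaling to equal FPKM sums (-0.18, limma adjusted p = 0.0597). That call was also lost without NC-1 replicate 2 (change -0.20) and without miR-4711-5p replicate 2 (change -0.18). CTBP2, a corepressor of the ZEB factors, fell from 49.0 ± 0.878 to 24.3 ± 0.690 FPKM (-0.98, limma adjusted p = 1.06e-05). HDAC1 went from 252 ± 1.52 to 226 ± 8.55 FPKM (-0.16, limma adjusted p = 0.0203), a call that was lost after rescaling to equal FPKM sums (-0.02, adjusted p = 0.720) or by median-of-ratios over genes of at least 10 FPKM (-0.09, adjusted p = 0.123), without the trend in eBayes (adjusted p = 0.0591), and without Parent replicate 1 (0.0805), Parent replicate 2 (0.0643) or miR-4711-5p replicate 1 (0.143). Against NC-1, 2 were lower and 2 higher, where 21.2% of all genes were lower and 18.4% higher.

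The transcription and splicing factors that maintain epithelial identity gave 6 lower and 1 higher of 14 tested against Parent and 9 lower and 1 higher against NC-1. Over all genes, 24.7% were lower and 18.7% higher against Parent, and 21.2% and 18.4% against NC-1. KLF5, which is expressed in proliferating epithelium, had 114 and 124 FPKM in Parent, 115 and 120.3 in NC-1, and 66.8 and 59.2 after miR-4711-5p (-0.91, limma adjusted p = 8.46e-05). ESRP1, the epithelial splicing regulator, fell from 51.3 ± 2.20 to 31.6 ± 1.11 FPKM (-0.68, limma adjusted p = 8.23e-05). EHF, an ETS factor of epithelium, fell from 69.6 ± 1.95 to 43.3 ± 0.178 FPKM (-0.67, limma adjusted p = 6.06e-05). GRHL2, an activator of CDH1 in epithelium, had 26.4 ± 1.16 and 23.9 ± 1.202 FPKM (-0.14, limma adjusted p = 0.0876). The median of the list against Parent was -0.09, and 0.04 after rescaling to equal FPKM sums, where 6 were lower and 2 higher.

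The destruction complex that degrades β-catenin and its partners in transcription gave 3 lower and 3 higher of 17 tested against Parent, with a median of 0.05, and 4 lower and 1 higher against NC-1. This is not above the shares over all genes, of which 43.4% were called against Parent and 39.6% against NC-1. FBXW11 (0.26, limma adjusted p = 0.0135) and GSK3B (0.20, adjusted p = 0.0156) rose against Parent, and TCF7L1 fell against Parent (-0.26, adjusted p = 0.0342). With 1 gene of the list higher against NC-1, at most 1 of these rises was called there. Each of the 3 calls against Parent was lost without Parent replicate 1 and without miR-4711-5p replicate 1. Those of FBXW11 and GSK3B were also lost without miR-4711-5p replicate 2, and that of TCF7L1 also without Parent replicate 2. The TCF7L1 call was lost as well with no filter (adjusted p = 0.0836), with equal FPKM sums (-0.14, adjusted p = 0.177) and with median-of-ratios over genes of at least 10 FPKM (-0.20, adjusted p = 0.0786). AMER1, a scaffold of the complex under the level set for naming, fell from 3.95 ± 0.267 to 2.19 ± 0.0705 FPKM (-0.63, limma adjusted p = 0.00103) and was picked after its value was seen. Of 14 target genes of Wnt and β-catenin, 5 were under the filter, the general targets AXIN2, LGR5, NKD1 and SP5 among them, each at no more than 0.104 FPKM. Of the 9 tested, 3 rose and 1 fell against Parent, where 18.7% of all genes were higher and 24.7% lower. DKK1, a secreted Wnt inhibitor, had 96.8 and 99.2 FPKM in Parent, 65.0 and 67.3 in NC-1, and 146 and 133 after miR-4711-5p, and was higher by 0.50 on the log2 scale than in Parent (limma adjusted p = 0.000433) and by 1.06 than in NC-1 (adjusted p = 1.73e-05). RNF43, which removes Wnt receptors, rose from 3.79 ± 0.0599 to 6.79 ± 0.261 FPKM (0.70, limma adjusted p = 0.000629). TNFRSF19 rose from 1.53 ± 0.0392 to 2.22 ± 0.325 FPKM (0.34, limma adjusted p = 0.0410), a call lost with no filter (0.0689), with the replicate block (0.0596), and without Parent replicate 1 (0.0974), Parent replicate 2 (0.119) or miR-4711-5p replicate 2 (0.24, adjusted p = 0.203). TNFRSF19 was not called against NC-1, where its small difference had the opposite sign. CCND1 (cyclin D1) fell from 78.3 ± 2.69 FPKM in Parent to 58.2 ± 3.51 FPKM (-0.42, limma adjusted p = 0.00100).

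The desmosome, the junction that JUP serves beside the cadherin complex, was lower in most of its genes, where 24.7% of all genes were lower against Parent and 21.2% against NC-1. Of 8 tested, 7 were lower and 1 higher against Parent with a median of -0.48, and 6 were lower and none higher against NC-1 with a median of -0.40. After rescaling to equal FPKM sums the counts were 6 and 1 against Parent and 5 and 0 against NC-1. DSG3, a desmosomal cadherin of stratified epithelium, had 19.5 and 20.5 FPKM in Parent, 13.9 and 14.2 in NC-1, and 9.75 and 10.2 after miR-4711-5p (-0.93 against Parent, limma adjusted p = 2.69e-05). The plaque protein PKP1 fell from 44.4 ± 1.22 to 28.2 ± 0.627 FPKM (-0.64, limma adjusted p = 6.72e-05) and the cadherin DSC3 from 26.1 ± 0.766 to 17.0 ± 0.571 FPKM (-0.59, limma adjusted p = 0.000148). DSC2 was the one with a higher level, 4.18 ± 0.112 in Parent and 5.84 ± 0.0243 after miR-4711-5p (0.40, limma adjusted p = 0.00248).

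**Figure D5:**
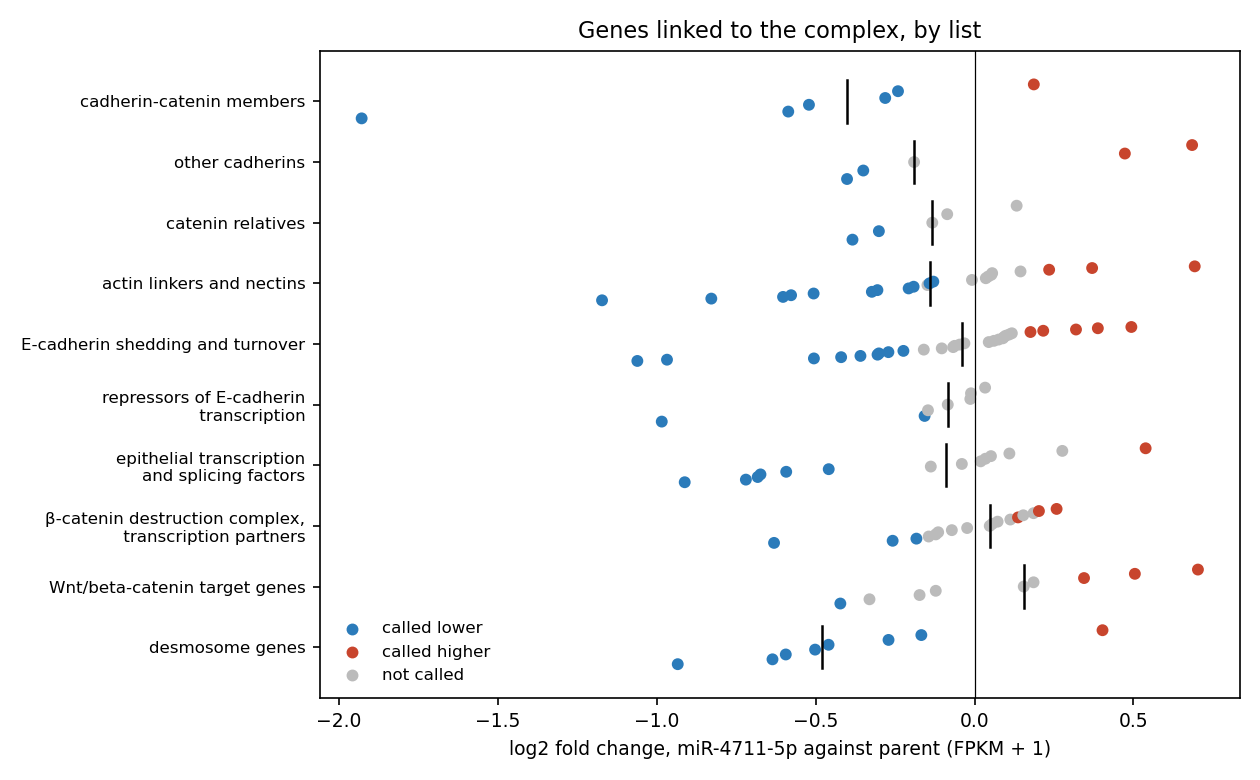
Change of each tested gene of the lists linked to the complex, as the limma log2 fold change of FPKM + 1 between miR-4711-5p and Parent. Points are genes, coloured by call, and black bars are list medians. CDH1 is the point near -1.93 in the top row, and the members and the desmosome genes have the lowest medians (-0.40 and -0.48).

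The genes whose pattern over the 6 libraries was most like that of CDH1 were sought among the 6647 genes whose mean reached 10 FPKM, by the root mean square distance between centred log2(FPKM + 1) values, for which the median over genes was 0.883. The closest were GTF3A (a transcription factor of 5S ribosomal RNA genes, distance 0.0733), MMP28 (a secreted metalloproteinase, 0.0918), PSMB6 (a proteasome subunit, 0.113), FCF1 (a ribosome assembly factor, 0.126) and LY6D (a squamous surface protein, 0.137). None of them is a member of the complex. GTF3A had 58.4 and 57.2 FPKM in Parent, 56.2 and 54.3 in NC-1, and 15.8 and 16.4 after miR-4711-5p. GTF3A, MMP28 and PSMB6 have 1 seed site in the longest 3′ UTR, FCF1 has 3 and LY6D has 0.

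Markers of other cell types were checked for cells other than epithelium. None of 7 leukocyte markers passed the filter, and their sum was between 0.315 and 1.06 FPKM per library. Of 10 fibroblast and mesenchymal markers 3 were tested, and VIM, the highest, had 21.6 ± 0.774 FPKM in Parent, 15.99 ± 3.08 in NC-1 and 23.1 ± 0.161 after miR-4711-5p (0.09 against Parent, limma adjusted p = 0.527). VIM was called higher against NC-1 (0.52, limma adjusted p = 0.00936), but not without miR-4711-5p replicate 1 (0.51, adjusted p = 0.0531) or replicate 2 (0.52, adjusted p = 0.0542), and its part in the CDH1 result was not tested. No other marker of this list was called in either comparison with miR-4711-5p. Of 4 endothelial markers CDH5 alone was tested. Of the 8 epithelial markers, 2 fell and 2 rose against Parent, and 3 fell and 4 rose against NC-1. Of all genes tested, 24.7% were lower and 18.7% higher against Parent, and 21.2% and 18.4% against NC-1. Against Parent, KRT19 (-0.85, limma adjusted p = 2.58e-05) and MUC1 (-0.96, adjusted p = 0.000251) fell, and CLDN4 (0.72, adjusted p = 5.04e-05) and KRT18 (0.19, adjusted p = 0.0138) rose. The KRT18 call was lost with no filter (0.0652) and without Parent replicate 2 (0.0885), miR-4711-5p replicate 1 (0.0728) or miR-4711-5p replicate 2 (0.0709). EPCAM had 100.8 ± 3.02 and 109 ± 1.63 FPKM (0.11, adjusted p = 0.0801).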

How the data were processed

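The deposited files hold 1 FPKM value per gene symbol and library, which the authors made from single-end reads of 75 bases of stranded mRNA libraries. The submitters' processing notes name TopHat2 2.1.1, Bowtie2 2.3.5.1, SAMtools 1.2, Cufflinks 2.2.1, Cuffdiff and hg19, and the study's methods name Cuffnorm. The gene annotation, strand setting and scaling option were not given in the sources used here, so reads of genes that overlap on opposite strands (CTNNB1 with ULK4, CTNNA1 with LRRTM2 and CTNNA1-AS1, CDH3 with CDH3-AS1, and CDH1 with a long noncoding RNA) may not have been told apart. Median-of-ratios factors computed from the files were all between 1.006 and 1.007.

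The 12040 genes whose FPKM averaged 1 or more over the 6 libraries were fitted on log2(FPKM + 1) with limma 3.58.1 in R 4.3.3 (lmFit, contrasts.fit, eBayes with a trend), with all 3 groups in 1 fit (3 residual and 4.15 prior degrees of freedom). The 3 comparisons were adjusted by Benjamini-Hochberg over all genes tested and called under 0.05. A pseudocount understates the change of genes at low levels. Ratios of means carry no pseudocount. No count model was run, since FPKM is not a count. Seed sites were searched with Python 3.11.15 and pysam 0.24.0 in GENCODE v44 transcripts lifted to GRCh37, to which 10599 genes matched by symbol and 580 by an older symbol in a RefSeq table.

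The members and gene lists were chosen with earlier results of these data known. Named were the members and, from each list, up to 3 genes averaging 5 FPKM or more with the largest change against Parent. Some of the genes behind small counts were named too, but not every small count is itemised. Other genes given with values (ADAM10, GRHL2, EPCAM, AMER1) stand outside the level limit or were added after their values were seen. Alternatives were pseudocount, filter, scaling, trend, the 2 groups compared alone, a replicate block and leaving out each library.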

Additional observations from a re-analysis of the deposited data

How the results depend on the processing

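Under the 13 alternatives run for each member and comparison, CDH1 stayed called and lower against both controls, with log2 changes between -1.99 and -1.79 against Parent and between -1.92 and -1.79 against NC-1, and CDH3, CTNND1 and JUP stayed called and lower against both. Of the rescalings, the one to equal FPKM sums and the one by median-of-ratios over genes of at least 10 FPKM were chosen after seeing the data. Equal sums moved the median of all genes against Parent from -0.01 to 0.11, and the calls to 4010 higher and 1776 lower against Parent (2255 and 2975 as deposited), 2923 and 2083 against NC-1 (2214 and 2549), and 2327 and 1000 between NC-1 and Parent (1456 and 1823). The other rescaling gave 3041 higher and 2276 lower against Parent and 1995 and 1202 between NC-1 and Parent. Between NC-1 and Parent, equal sums turned CDH1 to 0.011 and CDH3 to 0.047, and the other rescaling turned CDH3 to 0.019. Members called there went from 1 to 2 under each rescaling (CTNNB1 and CTNND1, both higher), and to 0 with no filter, where 2165 genes were called in place of 3279, and without a trend. Among linked genes, equal sums turned CTNNAL1 against Parent to 0.0042 and TANGO6 to 0.085 and 0.027 against Parent and NC-1, the other rescaling turned TANGO6 against Parent to 0.037, and without 1 of the miR-4711-5p libraries TANGO6 ranged from -0.20 to 0.18 against either control. The uncalled difference of TNFRSF19 against NC-1 (-0.02) turned to 0.020 with equal sums and ranged from -0.12 to 0.086 without 1 library.

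Leaving out 1 library at a time, calls ranged from 3275 to 4084 against Parent, from 2937 to 3747 against NC-1 and from 1487 to 2249 between NC-1 and Parent, where members called were 0 or 1. The replicate numbers do not pair the libraries (correlations of replicate differences 0.061, 0.0030 and -0.0089). With the replicate block, calls were 4983, 4564 and 2864 in place of 5230, 4763 and 3279, and the members kept their calls. With 8mer sites only, or in any annotated 3′ UTR, 1 member had a 3′ UTR site, as in the main search. Depth in reads is unknown, so no limit from counting can be given.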
